A study of Mus musculus with 6 samples.

Results

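Transcripts of 9 Kruppel-like factors (Klf2, Klf3, Klf4, Klf6, Klf7, Klf9, Klf10, Klf13 and Klf16) were read from the 26529 genes of the deposited table by their symbols, and all 9 were found. The table gives 3 libraries of osteoclast precursors (OCP), taken on day 3 of culture, and 3 libraries of osteoclasts (OC), the multinucleated cells that resorb bone, taken on day 6. Cells of both groups were bone marrow-derived macrophages of wild-type C57BL/6 mice aged 8 weeks, grown with 20 ng/ml of M-CSF, a macrophage growth factor, and 10 ng/ml of RANKL, the cytokine that drives osteoclast formation. No label gives an untreated culture, and none says whether replicates were separate mice or cultures, so p-values measure the spread between these libraries, which may be technical. Between 33219178 and 42121216 reads were assigned to genes in each library. Values are RPKM, which are scaled by gene length and by the library's assigned reads, so levels of different genes can be compared per length.

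Kruppel-like factors are transcription factors that bind GC-rich and CACCC elements through a block of C2H2 zinc fingers at the carboxyl end, and they share this preference with the SP factors. The family is sorted by its amino-terminal part. Klf2, Klf4, Klf6 and Klf7 are mostly described as activators, Klf3 recruits the corepressor CtBP, and Klf9, Klf10, Klf13 and Klf16 recruit the corepressor SIN3A. In monocytes and macrophages Klf2 is known for restraining inflammatory activation, Klf4 for monocyte differentiation and alternative activation, and Klf6 for inflammatory gene expression.

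Of the 9 factors, Klf6 and Klf7 were higher in OC and Klf4 was lower, and these were the 3 that passed the test. The stretches before their RefSeq start sites are shown for the GC and CACCC elements, the kind of sequence that the family binds. RefSeq promoters on GRCm38.p6 were matched for 7 of the 9 genes, with no match for Klf10 and Klf16, and each window covered 250 bases before the start. Printed bases end at the first annotated exon base within the window, or at the RefSeq start where the window held none. The Klf7 stretch lies inside the annotated span of its gene (64029447 to 64122282), not upstream of it. Capitals mark GC boxes, GGGCGG, and CACCC boxes, CACCC, on either strand.
Klf6, chr13:5861239-5861481, plus strand: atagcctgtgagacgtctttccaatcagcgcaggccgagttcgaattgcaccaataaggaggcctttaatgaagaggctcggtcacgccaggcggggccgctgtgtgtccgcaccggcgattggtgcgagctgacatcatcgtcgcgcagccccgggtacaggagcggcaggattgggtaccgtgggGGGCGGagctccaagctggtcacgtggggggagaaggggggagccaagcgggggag
Klf7, chr1:64121492-64121639, minus strand: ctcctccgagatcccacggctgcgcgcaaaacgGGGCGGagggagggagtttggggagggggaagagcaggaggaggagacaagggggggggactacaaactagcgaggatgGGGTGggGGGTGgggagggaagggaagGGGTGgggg
Klf4, chr4:55532476-55532725, minus strand: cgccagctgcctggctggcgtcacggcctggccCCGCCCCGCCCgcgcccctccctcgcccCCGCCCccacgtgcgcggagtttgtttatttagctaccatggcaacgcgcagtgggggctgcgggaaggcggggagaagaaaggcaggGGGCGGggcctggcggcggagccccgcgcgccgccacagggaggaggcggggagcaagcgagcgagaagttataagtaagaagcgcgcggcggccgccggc

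The Klf4 stretch holds 4 GC boxes, 2 of which overlap by a base, and 0 CACCC boxes. The Klf7 stretch holds 1 GC box and 3 CACCC boxes, and the Klf6 stretch holds 1 GC box and 0 CACCC boxes. Among all 7 windows 6 held a GC box, against 33.0% of 32536 promoters of the same length, and 5 held a CACCC box, against 52.1%. The GC content of these windows ran from 59.2% for Klf7 to 78.4% for Klf3, where the median promoter had 52.4%. The window of Klf2 held the only match to a MEF2 site, CTAAATTTAG, at bases -118 to -109 from the start. This motif was found in 0.513% of all promoters. None of the 7 windows held TATAAA, the full cyclic AMP element TGACGTCA, a CArG box or a kappaB site. The pattern TGANTCA, looser than the AP-1 consensus, was found in the window of Klf9 alone. That match, TGAATCA, has A at the centre, where the consensus has C or G. These are matches of letters, and no binding was measured.

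Klf6 was the most abundant member in both groups. Its gene lies on chromosome 13 (5861489 to 5870393, plus strand, GRCm38). It stood at 17.9, 14.5 and 15.0 RPKM in OCP replicates 1, 2 and 3 and at 23.4, 20.7 and 23.4 RPKM in OC replicates 1, 2 and 3. All OC libraries lay above all OCP libraries. The mean went from 15.8 ± 1.83 to 22.5 ± 1.58 RPKM (SD, n = 3 per group), a ratio of 1.42. On the log2(RPKM + 1) scale, on which limma compared the groups, Klf6 rose by 0.49 (SE 0.09, adjusted p = 0.0018).

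Klf7, a widely expressed factor best known from axon growth of neurons, had the largest change of the 9. It was at 3.16, 2.82 and 2.98 RPKM in the OCP libraries and at 4.99, 4.79 and 5.48 RPKM in the OC libraries. No OC value came near the OCP range. The mean went from 2.99 ± 0.167 to 5.09 ± 0.353 RPKM, a ratio of 1.70, and the log2 difference was 0.61 (SE 0.07, adjusted p = 0.00015). The gene spans chromosome 1 from 64029447 to 64122282 on the minus strand. Of its 8131 exonic bases, 3196 are shared with the antisense gene Gm26649. Gm26649 rose too, from 1.82 ± 0.150 to 3.03 ± 0.116 RPKM (adjusted p = 0.00036). Whether counting used strand is not stated in any source read here, and reads of the shared bases therefore cannot be assigned to either gene. The rises of Klf6 and Klf7 passed in every alternative setting in which they were tested.

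Klf4, one of the factors that reprogram somatic cells to pluripotency, was the member that went down. Its gene lies on chromosome 4 (55527143 to 55532466, minus strand). The OCP libraries held 3.68, 2.81 and 3.78 RPKM and the OC libraries 2.51, 2.69 and 2.66 RPKM. The groups did not overlap, but OCP replicate 2 lay close to the OC values. The mean fell from 3.42 ± 0.534 to 2.62 ± 0.0940 RPKM, a ratio of 0.765, and the log2 difference was -0.28 (SE 0.09, adjusted p = 0.032). This call was narrow. The test no longer passed when low genes were kept (adjusted p = 0.083), nor without OCP replicate 1 or 3 (adjusted p = 0.091 and 0.11) and without OC replicate 1, 2 or 3 (adjusted p = 0.092, 0.063 and 0.058). Without OCP replicate 2 it was -0.39 (adjusted p = 0.0026).

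Klf2, the remaining activator, known for keeping endothelium and T cells quiescent, was the scarcest of the 9. It was at 1.29, 1.55 and 1.83 RPKM in OCP and at 1.55, 1.35 and 1.07 RPKM in OC. The groups overlapped, and 75 to 124 reads per library stood behind these values. The log2 difference was -0.14 with a 95% interval of -0.39 to 0.11 (adjusted p = 0.31), so a direction was not resolved. Klf2 lies on chromosome 8 (72319033 to 72321656, plus strand).

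**Figure D1:**
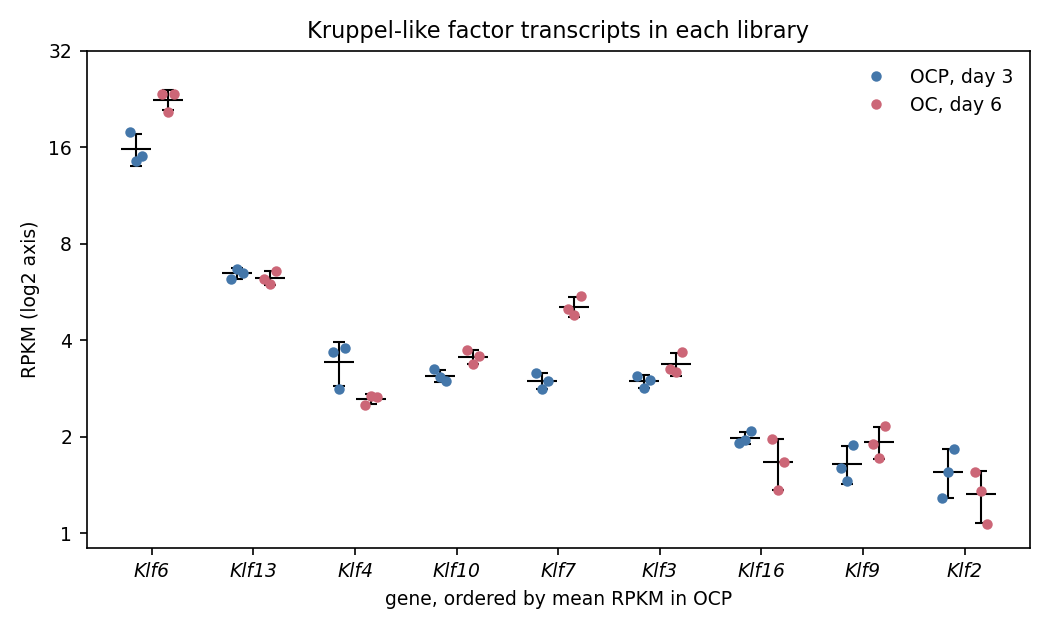
RPKM of the 9 Kruppel-like factors (log2 axis) in each of 3 OCP and 3 OC libraries, with genes ordered by their mean in OCP. Points are libraries, long bars are means and whiskers are 1 SD. Klf6 stands above all others at 14.5 to 23.4 RPKM, and Klf7 moves from the level of Klf10 and Klf3 to above them.

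None of the repressor types passed the test in the main limma fit. Klf3 (chromosome 5, 64803388 to 64832901, plus strand) was at 3.10, 2.83 and 3.00 RPKM in OCP and at 3.25, 3.17 and 3.68 RPKM in OC. Every OC value was above every OCP value, by a small margin. The log2 difference of 0.13 (95% interval -0.02 to 0.29) did not pass (adjusted p = 0.13). Klf3 shares 404 of 11243 exonic bases with the antisense gene Gm20033, whose level went from 1.49 ± 0.178 to 1.72 ± 0.185 RPKM and did not pass.

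Klf10, first described as an early gene induced by TGF-beta (chromosome 15, 38294413 to 38300707, minus strand), was at 3.24, 3.06 and 2.98 RPKM in OCP and at 3.73, 3.36 and 3.57 RPKM in OC. The groups lay apart here too. Its log2 difference of 0.15 (95% interval 0.01 to 0.30) had an unadjusted p of 0.038 in limma and did not pass after adjustment (adjusted p = 0.065). In a fit of whole reads recovered from RPKM, limma voom, 57.8% of the same tested genes were called, and Klf3 (adjusted p = 0.013) and Klf10 (adjusted p = 0.040) were among them with higher values in OC.

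Klf9, a gene induced by glucocorticoids and thyroid hormone (chromosome 19, 23141226 to 23166911, plus strand), was at 1.60, 1.45 and 1.89 RPKM in OCP and at 1.90, 1.72 and 2.16 RPKM in OC, with overlapping groups. Its log2 difference was 0.15 (95% interval -0.06 to 0.35, adjusted p = 0.20). Klf16, first described as a regulator of dopamine receptor genes (chromosome 10, 80567124 to 80577321, minus strand), was at 1.92, 1.96 and 2.08 RPKM in OCP and at 1.97, 1.36 and 1.67 RPKM in OC. OC replicate 1 sat within the OCP range while the other OC libraries were below it. The difference of -0.17 (95% interval -0.38 to 0.04) did not pass (adjusted p = 0.15).

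Klf13, known as an activator of Ccl5 in T cells (chromosome 7, 63886351 to 63938915, minus strand), was the second most abundant member and the one with the smallest difference. Its OCP libraries were at 6.22, 6.69 and 6.48 RPKM and its OC libraries at 6.22, 5.98 and 6.58 RPKM. Both ranges nearly coincided, and the log2 difference of -0.04 had a 95% interval of -0.17 to 0.09 (adjusted p = 0.59), which on the scale of RPKM + 1 spans ratios from 0.887 to 1.07.

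**Figure D2:**
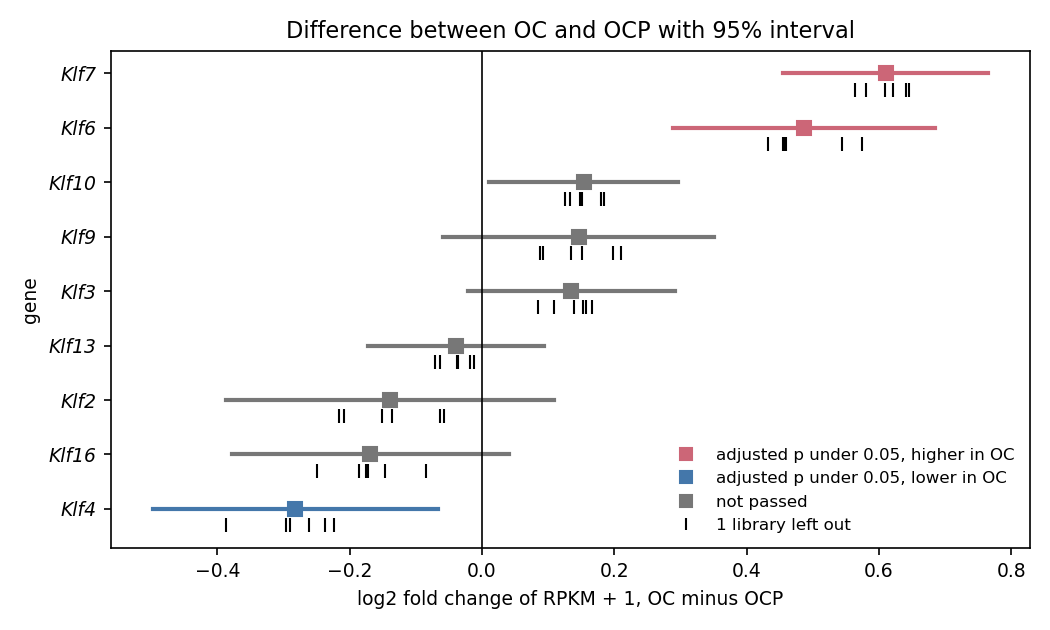
Log2 fold change of RPKM + 1 (OC minus OCP) of each Kruppel-like factor, with its 95% interval from limma (line) and the values with 1 library left out (ticks). Klf7 at 0.61 and Klf6 at 0.49 lie to the right of 0, Klf4 at -0.28 to the left, and the other 6 did not pass the test.

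Of 12301 genes tested, 55.6% were called, 23.5% higher and 32.1% lower in OC, while 2 of the 9 factors were higher and 1 was lower. Among the 4 activators 2 were higher, 1 was lower (Klf4, narrowly) and 1 did not pass. In the main limma fit 0 of the 4 SIN3A-binding factors passed. By an unadjusted p under 0.05, 1 of these 4, Klf10, would be called. In other settings Klf10 passed with TMM factors (adjusted p = 0.031), with plain variances (0.047) and by voom (0.040). Klf16 passed after quantile normalization (0.046), so the types were not cleanly separated. Groups did not overlap for 5 of 9 members, Klf3, Klf4, Klf6, Klf7 and Klf10, and for 62.7% of all tested genes. The median log2 difference of the 9 was 0.13 and that of all tested genes -0.05. Klf7 exceeded 92.1% and Klf6 89.4% of the tested genes in log2 difference, and Klf4 exceeded 23.6%. In bulk RNA fewer cells of a type and less RNA per cell cannot be told apart.

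**Figure D3:**
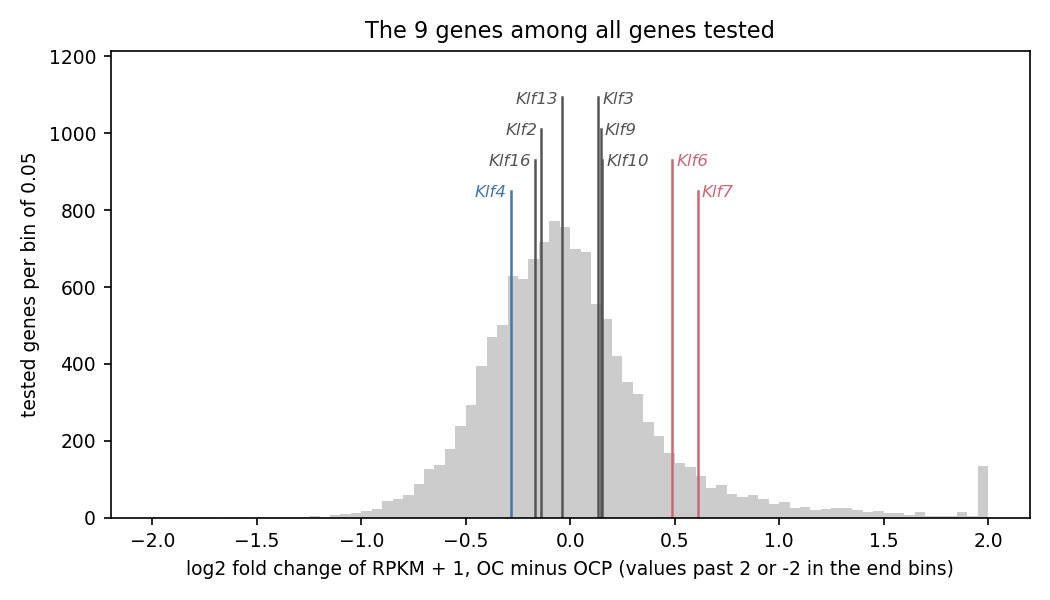
Histogram of the log2 fold changes of RPKM + 1 (OC minus OCP) of 12301 tested genes, with the 9 Kruppel-like factors as vertical lines whose height has no meaning. Klf6 and Klf7 lie in the right flank, and the 7 others lie within the bulk of the distribution.

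The order of levels was the same at its top in both groups, with Klf6 first and Klf13 second, and neither overlapped with its neighbour. In OCP, Klf4, Klf10, Klf7 and Klf3 followed within 2.98 to 3.42 RPKM, each overlapping with the next. In OC, Klf7 came next after Klf13, at 5.09 RPKM, and no longer overlapped with Klf10, which followed at 3.55 RPKM and overlapped with Klf3. Klf4 then stood at 2.62 RPKM, below the range of Klf3 and above that of Klf9. Klf9, Klf16 and Klf2 were the last 3 in OC, each overlapping with the next. Among all tested genes Klf6 exceeded 75.5% in mean level, Klf13 48.2% and Klf2 9.40%.

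The summed RPKM of the 9 members was 42.1, 37.7 and 40.0 in the OCP libraries and 49.6, 45.1 and 50.2 in the OC libraries. Without Klf6 the sums were 24.2, 23.2 and 25.0 in OCP and 26.1, 24.4 and 26.9 in OC, so that the groups overlapped. Klf6 made up 39.5% ± 2.65 of the sum in OCP and 46.6% ± 0.731 in OC. Klf7 went from 7.48% ± 0.0349 to 10.5% ± 0.429, and Klf4 from 8.55% ± 1.01 to 5.44% ± 0.462. The share of Klf13 was 16.2% ± 1.49 in OCP and 13.0% ± 0.372 in OC. A share depends on the other members, and these are given as a description.

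**Figure D4:**
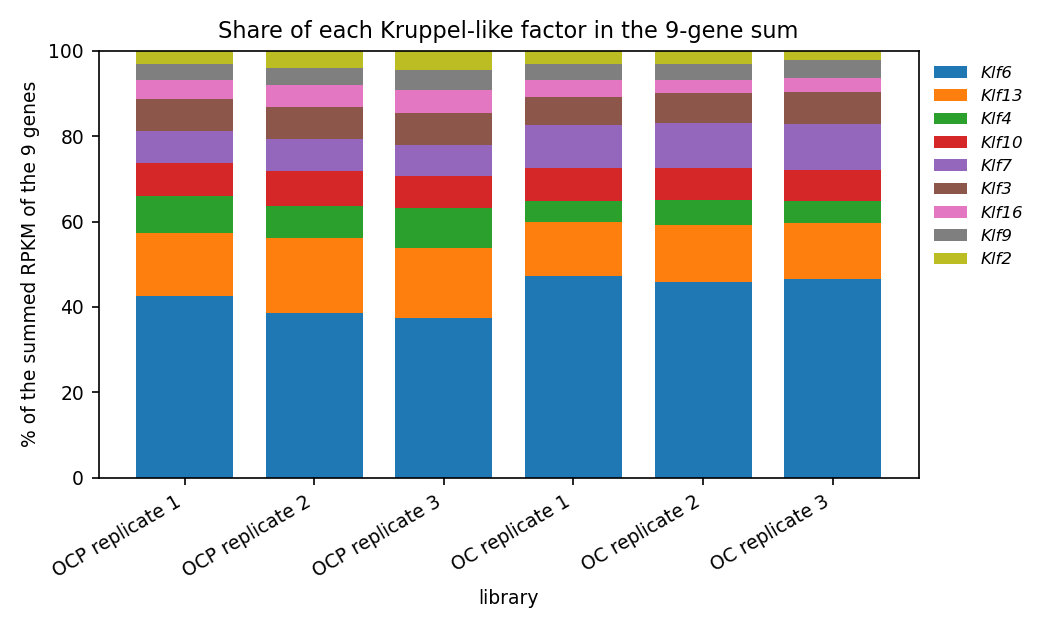
Share of each Kruppel-like factor in the summed RPKM of the 9 genes (%), by library. Klf6 takes 37.5% to 42.5% in the OCP libraries and 45.8% to 47.3% in the OC libraries.

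The other Kruppel-like factors had lower levels per length. Klf5, Klf8, Klf11, Klf1, Klf12, Klf15 and Klf17 all failed the filter of 1 RPKM in at least 3 libraries. The symbol Klf14 was not among the 26529 genes. Klf8, which binds CtBP as Klf3 does, came closest, with 0.694 ± 0.0115 RPKM for OCP and 0.654 ± 0.199 RPKM for OC. Klf11, the closest relative of Klf10, was at 0.202, 0.322 and 0.335 RPKM in OCP and at 0.169, 0.157 and 0.161 RPKM in OC. All its OC libraries were below the OCP libraries. Klf1, the erythroid factor, had 0 to 6 reads per library and Klf12 2 reads in all, values close to the limit of this depth. Klf8 had 82 to 168 reads per library, so it was detected although its RPKM lay below the filter.

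A voom fit of all genes with at least 10 reads on average, added after the data were seen, called 52.2% of 15802 genes. Klf11 (log2 difference -0.71, adjusted p = 0.051), Klf5 (-0.90, adjusted p = 0.13) and Klf8 (-0.08, adjusted p = 0.75) did not pass in it. The related Sp4 passed with a log2 difference of 1.52 (adjusted p = 1.4e-05), at 0.165, 0.218 and 0.142 RPKM in OCP and 0.426, 0.459 and 0.573 RPKM in OC. Of the SP factors, which compete for the same GC boxes, Sp1, Sp2, Sp3 and Sp9 passed the filter. Sp2 fell from 7.67 ± 0.713 to 6.08 ± 0.224 RPKM (adjusted p = 0.0086). Sp1 at 8.60 ± 0.475 and 9.18 ± 0.413 RPKM, Sp3 at 7.29 ± 0.845 and 7.77 ± 1.28 RPKM and Sp9 at 1.41 ± 0.0682 and 1.23 ± 0.124 RPKM in OCP and OC did not pass. In both groups, Klf6 was more abundant per length than Sp1, Sp2 and Sp3. Sp2, Sp3 and Sp9 share exonic bases with the antisense genes D030028A08Rik, Sp3os and Cir1, so their values are uncertain.

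The co-regulators through which the factors act were all tested, and 2 of 11 rose while 4 fell, where 23.5% of all tested genes were higher and 32.1% lower. Fhl3, a partner of Klf3, fell from 66.3 ± 2.40 to 41.4 ± 1.51 RPKM (adjusted p = 1.8e-05) and Sin3b, a SIN3 scaffold, from 34.3 ± 1.13 to 22.4 ± 1.31 RPKM (adjusted p = 6.2e-05). The list median was -0.04 and that of all tested genes -0.05, so neither the count nor the median set this list apart. Named after their values were seen, Sin3a rose from 24.2 ± 0.609 to 27.7 ± 0.586 RPKM and Ctbp1 fell from 20.6 ± 0.676 to 18.1 ± 0.914 RPKM.

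Genes known to act upstream of the family were read next, against the same 55.6% called over all tested genes. The MEK5, ERK5 and MEF2 route is the textbook inducer of Klf2 and Klf4, and 3 of its 8 genes rose and 2 fell (median 0.04), a share near that over all genes. Mef2c rose from 0.534 ± 0.0358 to 1.50 ± 0.0670 RPKM (adjusted p = 6.2e-05) and the kinase Map3k3 from 13.1 ± 0.561 to 17.1 ± 0.140 RPKM (adjusted p = 0.00044). Mef2c was below 1 RPKM in every OCP library and entered the test through the OC libraries alone, so the filter favoured a rise. Mapk7, which encodes ERK5, was at 6.90 ± 0.594 and 7.15 ± 0.368 RPKM and did not pass. Klf4 was called lower, narrowly, and the direction of Klf2 was not resolved. Their relation to this route was not tested.

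Klf9 is a direct target of the glucocorticoid receptor. Of 5 tested genes of that list 3 rose and 1 fell (median 0.27), where 23.5% of all tested genes were higher and 32.1% lower. Fkbp5, which encodes a cochaperone of the receptor, rose from 2.19 ± 0.164 to 6.44 ± 0.362 RPKM (adjusted p = 4.0e-06) and the clock gene Per1 from 2.78 ± 0.131 to 6.18 ± 0.365 RPKM (adjusted p = 1.3e-05). Tsc22d3, itself a classical glucocorticoid-induced gene, was picked with its values known and fell from 8.31 ± 0.461 to 4.95 ± 0.331 RPKM, so the list did not move one way.

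For Klf10, 3 of 8 genes of the TGF-beta route rose and 3 fell (median 0.06), where 55.6% of all tested genes were called. The receptor Tgfbr1 fell from 16.9 ± 2.75 to 10.5 ± 1.05 RPKM (adjusted p = 0.0028) and Smad3 rose from 0.756 ± 0.0743 to 1.32 ± 0.201 RPKM (adjusted p = 0.0045, but 0.053 after quantile normalization). Smad3 passed the filter through the OC libraries alone, which favoured a rise. Among ubiquitin ligases reported to act on the family 2 of 6 rose and 1 fell, again near the 55.6% called over all genes. Smurf1 fell from 19.7 ± 0.378 to 12.2 ± 0.472 RPKM (adjusted p = 1.9e-05) and Vhl, which is known to bind Klf4, rose from 1.58 ± 0.148 to 2.56 ± 0.129 RPKM (adjusted p = 0.00077).

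Genes that the literature assigns to these factors as targets were tested in 6 of 11 cases, of which 5 rose and 1 fell (median 1.36, against -0.05 for all tested genes, of which 23.5% were higher). Arg1, the arginase linked to Klf4 in alternatively activated macrophages, rose from 182 ± 5.60 to 664 ± 13.6 RPKM (adjusted p = 2.8e-08). The chemokine Ccl5, linked to Klf13, rose from 46.5 ± 0.749 to 171 ± 1.14 RPKM (adjusted p = 1.9e-08). Klf4 was called lower, narrowly, and Klf13 did not pass. Whether either factor acted on these genes here was not tested. Lgals3, reported to be repressed by Klf3, was picked with its values known and fell from 223 ± 7.18 to 165 ± 9.28 RPKM (adjusted p = 0.00025). Klf3 itself did not pass in limma, and whether it acted on Lgals3 was not tested.

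Several Kruppel-like factors are early response genes, and other genes of that kind moved in these libraries. Of 12 tested immediate early genes 10 rose and 1 fell (median 0.68), where 23.5% of all tested genes were higher, and their summed level ran from 188 to 204 RPKM in OCP and from 405 to 423 RPKM in OC. Ier3 rose from 5.53 ± 0.691 to 51.4 ± 4.79 RPKM (adjusted p = 2.3e-07) and Atf3 from 19.8 ± 1.03 to 123 ± 7.18 RPKM (adjusted p = 3.0e-08). The most abundant, Junb, rose from 74.6 ± 4.42 to 96.6 ± 4.35 RPKM. Of the 9 factors, 2 were called higher (Klf6 and Klf7) and 1 lower (Klf4, narrowly). The other 6, Klf2 and Klf10 among them, did not pass. Of 9 tested heat shock genes 3 were higher and 4 lower (median -0.13), where 23.5% and 32.1% of all tested genes were. The summed level of the list ran from 1956 to 2163 RPKM in OCP and from 1906 to 2021 RPKM in OC, with overlap. The 3 genes named next are the 3 that were higher. Hspa1b, whose reads may be split with its near copy Hspa1a, went from 7.74 ± 0.283 to 15.4 ± 0.254 RPKM, Hsph1 from 15.0 ± 0.602 to 28.0 ± 0.575 RPKM and the most abundant, Hspa8, from 752 ± 20.7 to 909 ± 19.1 RPKM. Their part in the results for the 9 factors was not tested.

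Markers checked the labels. All 10 osteoclast markers were present in both groups and all 10 were lower in OC (32.1% of all tested genes were), with Ctsk, the collagen-degrading cathepsin, going from 3249 ± 108 to 1711 ± 25.0 RPKM, and Acp5 from 642 ± 26.8 to 338 ± 13.0 RPKM. Of 8 macrophage markers 6 rose and 2 fell (23.5% and 32.1% of all tested genes did), Cx3cr1 from 0.833 ± 0.0955 to 4.19 ± 0.302 RPKM, Cd14 from 36.7 ± 2.03 to 88.5 ± 5.51 RPKM and the most abundant, Lyz2, from 4080 ± 270 to 7197 ± 263 RPKM. Cx3cr1 passed the filter through the OC libraries alone, which favoured a rise. Osteoclast marker levels thus ran against the stage that the labels name, and the group names here are those of the labels. Neutrophil markers summed to 34.5 to 38.1 RPKM in OCP and 48.9 to 53.3 RPKM in OC, and 3 of 3 tested members rose, S100a8 (6.24 ± 0.686 to 9.35 ± 0.577 RPKM), Ngp (5.51 ± 0.842 to 7.94 ± 0.0879 RPKM) and the most abundant, S100a9 (23.2 ± 1.37 to 31.9 ± 1.98 RPKM).

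Markers of other cell types, some of which are known to hold much Klf2 or Klf4, stayed at low levels. Endothelial markers summed to 2.86 to 3.17 RPKM in OCP and 2.43 to 2.84 RPKM in OC, with Kdr the single gene above the filter, at 1.75 ± 0.125 and 1.54 ± 0.131 RPKM. T cell markers summed to 1.72 to 2.27 and 2.29 to 2.99 RPKM. In OCP Cd3e and Cd3d were at 0, and Lck rose from 0.131 ± 0.0678 to 1.23 ± 0.0463 RPKM, while Trac, the most abundant, was at 1.81 ± 0.322 and 1.26 ± 0.375 RPKM. Lck passed the filter through the OC libraries alone, which favoured a rise. B cell markers summed to 3.59 to 4.26 and 2.75 to 3.40 RPKM, nearly all from Vpreb1, which fell from 3.80 ± 0.362 to 2.91 ± 0.254 RPKM, but did not pass by voom (adjusted p = 0.062) or without OCP replicate 3 (adjusted p = 0.055). Stromal markers, led by Acta2 at 1.22 ± 0.0660 and 1.19 ± 0.275 RPKM, summed to 3.94 to 4.09 and 3.69 to 4.29 RPKM. Erythroid markers summed to at most 0.546 RPKM in any library, the most abundant being Hbb-bs at 0.0901 ± 0.0832 and 0.148 ± 0.130 RPKM. Their part in the results for Klf4, Klf6 and Klf7 was not tested.

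The genes most like Klf7 over the 6 libraries, by the root mean square difference of centred log2(RPKM + 1), were Kmt2a, a histone methyltransferase (0.0193), Phc3, a Polycomb component (0.0279), and Lyst, a regulator of lysosomal trafficking (0.0282). Kmt2a went from 2.92 ± 0.127 to 5.07 ± 0.300 RPKM, nearly the levels of Klf7 itself. Phc3 went from 0.893 ± 0.0664 to 1.93 ± 0.173 RPKM, a ratio of 2.16 against 1.70 for Klf7. It passed the filter through the OC libraries alone, which favoured a rise. Those most like Klf4 were Rmnd1 (0.0234), Arhgap27os1 (0.0294) and Gm10184 (0.0387). Rmnd1, a mitochondrial translation gene, was at 4.99, 3.81 and 4.79 RPKM in OCP and at 3.41, 3.58 and 3.56 RPKM in OC, with the same low OCP replicate 2 as Klf4. Such closeness was common, since 439 genes lay within 0.1 of Klf7 and 488 within 0.1 of Klf4.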

How the data were processed

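The deposited table held RPKM per gene and library. Per the submitters' processing notes, the authors trimmed reads with Trimmomatic 0.36, aligned them with STAR 2.5.3a and assigned them with featureCounts. The notes name GRCh38, but 22305 genes had the start and end of GENCODE M21 on GRCm38. No source read here states strand use or multi-mapping. RPKM times length gave whole reads within 0.01 for 100% of values. Of values from 1 to 20 reads, 76.3% to 79.7% were even, so reads are not independent molecules and counting errors are lower bounds.

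Genes that reached 1 RPKM in 3 or more libraries were compared in limma 3.58.1 (R 4.3.3, statmod 1.5.0) on log2(RPKM + 1) with trended, robust variances. Of the named genes, Mef2c, Smad3, Cx3cr1, Lck and Phc3 reached 1 RPKM in the OC libraries only. Fits without an OC library left these genes untested. The values are OC minus OCP, and p-values are two-sided and Benjamini-Hochberg adjusted over all tested genes, with a threshold of 0.05. The steps were tested on simulated data. Plots used Python 3.11.15 and matplotlib 3.10.9. The members and lists were chosen with earlier results of these data known. Named were all members, all KLF and SP relatives above the filter, the 2 called genes of each list with the largest change, the most abundant marker, immediate early and heat shock gene, and the 3 genes most like the members with the largest rise and fall. Relatives below the filter, genes that overlap a member and genes said to be so were named after their values were seen. Alternatives were voom on recovered reads, TMM factors, quantile normalization, a block for the replicate number, variances with neither trend nor robust weighting (plain variances), a pseudocount of 0.1, all genes kept, only genes averaging 5 RPKM or more, and each library left out.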

Additional observations from a re-analysis of the deposited data

How the results depend on the processing

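With a mean of at least 5 RPKM, 4549 of 7228 tested genes were called, against 6843 of 12301; fewer genes were tested. Over up to 14 settings per gene, the sign of the log2 difference of each of the 9 factors was kept. Only Klf6 and Klf13 reached a mean of 5 RPKM. Klf4 did not pass with no filter (-0.28), and over the fits that leave out a library its log2 difference ran from -0.39 to -0.22. Klf3 passed by voom (0.22). Klf10 passed with TMM factors (0.19), with plain variances (0.15) and by voom (0.24), and Klf16 after quantile normalization (-0.24, adjusted p = 0.046, against 0.050 to 0.43 when a library was left out). Why these calls changed was not tested. The replicate number as a block gave 6678 calls and changed no call of the 9 factors (Klf4 adjusted p = 0.042); same-numbered libraries correlated at -0.11, 0.14 and 0.01 in their deviations, so the numbers were not taken to pair them, and not every library correlated best with its own number. Of 44 other named genes in 580 fits, 559 kept direction and call, 10 gained it and 8 lost it. With a library left out, the uncalled Sp3 ran from -0.034 (without OC replicate 3; -0.0033 without OCP replicate 2) to 0.174, and the uncalled Acta2 from -0.0893 to 0.0810 (without OC replicate 2). Trac passed with the block (adjusted p = 0.013), after quantile normalization (0.034), without OCP replicate 2 (0.039) and without OC replicate 1 (0.025). Klf2, Klf9 and Klf16, with 75 to 269 reads per library, have the widest intervals relative to their level.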
